A study of Danio rerio with 16 samples.

Results

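Lysosomal hydrolases, lysosomal membrane proteins and proteins that carry them were taken from a list of 54 gene symbols, by name. No cutoff on a measured value was used, but members and lists were chosen with earlier results of these data known. Of the 54 symbols, 50 were found in the counts under the listed symbol, and arsb was found as ARSB. The symbols gns and ppt2a.2 were found under the RefSeq synonyms gnsb and zgc:55621. No row matched pla2g15l, which was not analysed here. The 53 genes found, out of 36109 in all, formed 6 classes by role: 12 proteases, 14 glycosidases, 6 sulfatases, 9 genes of lipid handling, 9 membrane proteins and 3 sorting and granulin genes. With 0 reads in every library, zgc:55621 could not be tested, so 52 genes entered the comparisons.

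Bulk RNA sequencing had been done on zebrafish embryos in 16 libraries, 4 in each of 4 groups. The wild-type siblings, untreated, were taken at 24 and 48 hours post fertilisation (hpf) and are called sib24 and sib48. Embryos in which lipf and pla2g15 had both been knocked out with CRISPR/Cas9 were taken at the same ages and are called mut24 and mut48. The labels give the tissue as body and the series description speaks of whole embryos. The labels do not state the strain, the alleles or the zygosity of the siblings, which the sample titles call WT. Nor do they state the number of embryos in a library or whether replicates came from separate clutches. Spread between the libraries of a group, possibly technical, is therefore all that the p-values measure.

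Lysosomes are acidic compartments in which soluble hydrolases break down proteins, glycans, sulfated polysaccharides and lipids. The hydrolases are made at the endoplasmic reticulum and carried to lysosomes by sorting receptors. Heavily glycosylated membrane proteins such as Lamp1 and Lamp2 line the compartment, and transporters in its membrane export the products. In mammals many of these genes carry a shared promoter element bound by the transcription factors TFEB and TFE3, and loss of single enzymes causes storage disorders. In fish embryos, cathepsins also cut yolk proteins, and the yolk syncytial layer, which surrounds the yolk, takes part in passing yolk lipid to the body. One of the mutated genes, pla2g15, encodes a lysosomal phospholipase, and the other, lipf, an acid lipase.

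Counts per library ran from 35851808 to 50462333. The lipf transcript was lower in mutants at both ages (log2 fold changes of -3.22 at 24 hpf and -3.24 at 48 hpf, edgeR adjusted p = 0.00119 and 4.31e-05). The pla2g15 transcript was not called (edgeR adjusted p = 0.71 and 0.468). Levels are given as CPM, counts per 1000000 counts of a library after TMM scaling, in the order of replicates 1 to 4. They are shares of reads without regard to transcript length, so levels are compared between groups and not between genes. In bulk RNA, more cells of a type and more RNA per cell cannot be told apart. How the counting treated reads shared by paralogs, such as asah1a and asah1b, was not tested, so values of such pairs are uncertain.

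At 48 hpf part of the lysosomal genes were higher in mutants. Of the 52 genes, 21 rose in mut48 against sib48 and 0 fell, and 31 were not called (edgeR quasi-likelihood test, Benjamini-Hochberg adjusted p under 0.05 over all genes tested). This was 40.4% of them, where 2.84% of all 24300 genes tested were called higher and 4.59% lower. The list was chosen with earlier results of these data known, so this share is a description. No gene was lower at an unadjusted p under 0.05 either, and DESeq2 called 24 higher and 0 lower. When only the 8 libraries of 48 hpf were fitted, edgeR called 29 higher and 0 lower. The shares of all genes called by DESeq2 and by the fit of these 8 libraries were not counted. Each class held at least 1 call, but that of lipid handling was smpd1 alone, whose call was not stable. The median log2 fold change was 0.39, against -0.04 over all genes tested, and 49 of 52 values were positive, where 44.8% of all genes were. In 33 genes all 4 mutant libraries lay above all 4 sibling libraries, which held for 5.7% of all genes tested, and in 0 they lay below. The summed level of the 53 genes was 2143 ± 60.2 CPM in sib48 and 3276 ± 276 in mut48 (mean ± SD, n = 4). Of these sums ctsla alone, whose call was not stable either, made up 427 ± 29.5 CPM in sib48 and 905 ± 182 in mut48.

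**Figure D1:**
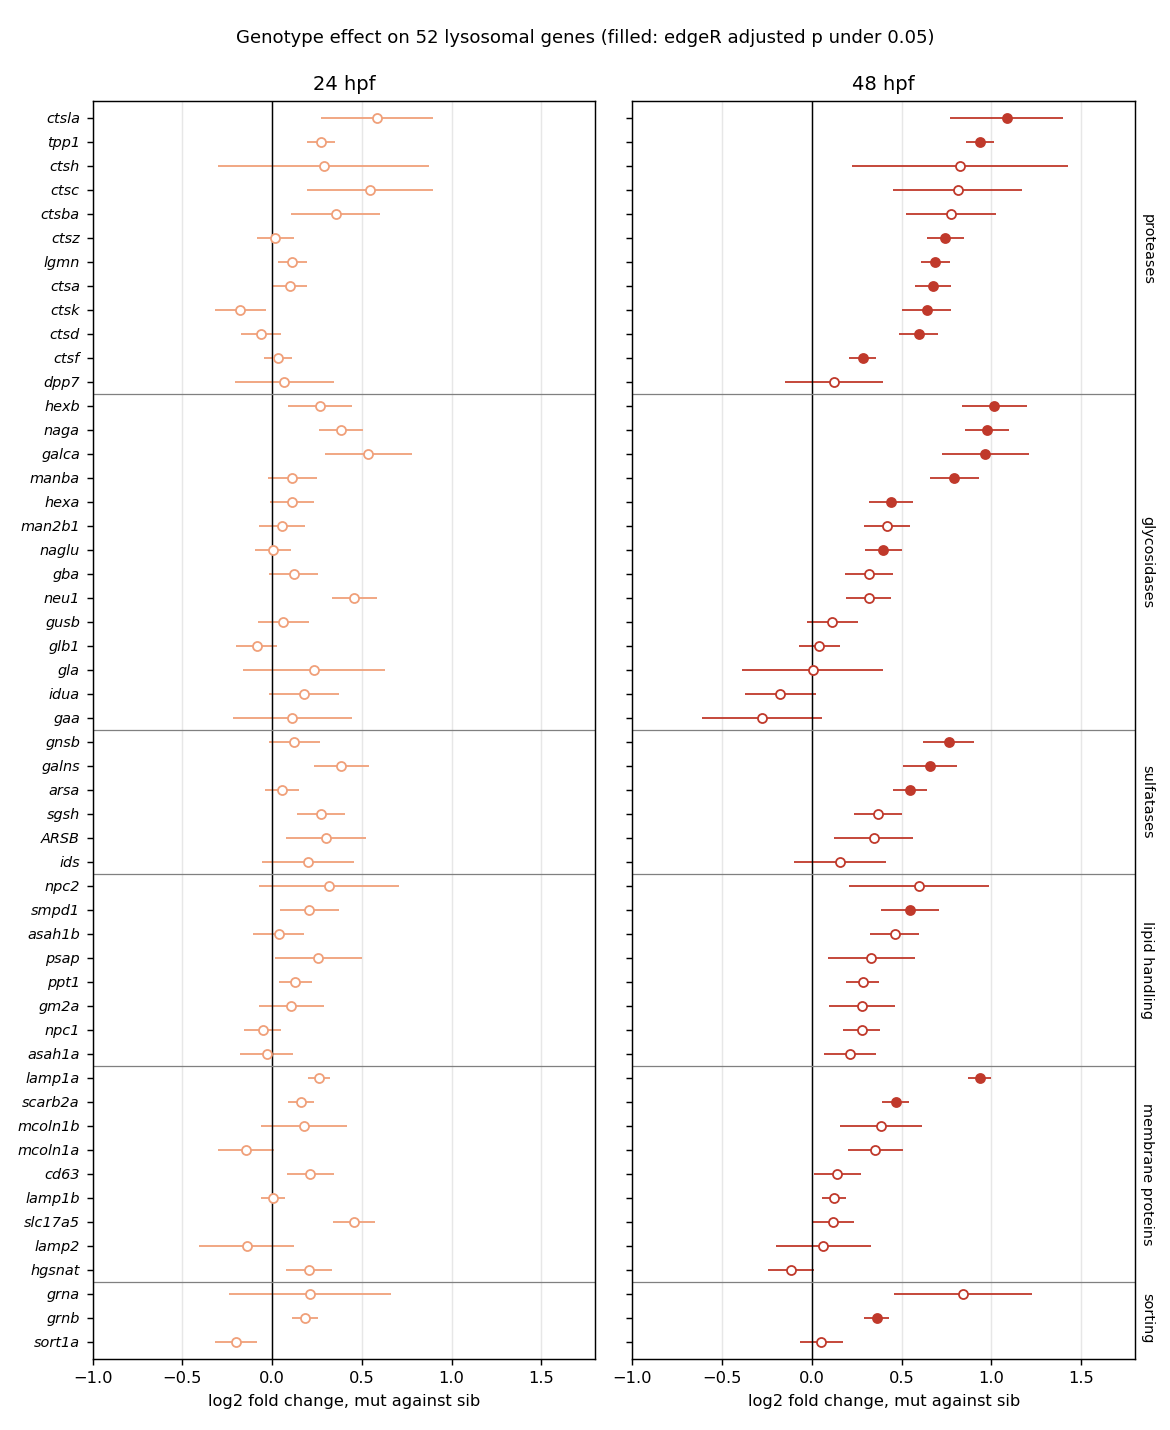
Log2 fold change of mutants against siblings (horizontal axis, error bar 1 SE) for the 52 tested genes at 24 hpf (left) and 48 hpf (right), by class and ordered by the value at 48 hpf, with filled circles for called genes. At 48 hpf 21 circles are filled, all to the right of 0, and at 24 hpf none is.

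Proteases gave the largest share of calls, 8 of 12 genes. Over all genes tested 2.84% were called higher, and this background holds for each of the classes that follow. The tripeptidyl peptidase gene tpp1, whose loss in humans causes a neuronal storage disease, stood at 30.1, 26.7, 28.2 and 24.8 CPM in the sib48 libraries. In the mut48 libraries it stood at 48.1, 57.5, 54.2 and 50.5. Every mutant library lay above every sibling library, and the gene rose 1.91-fold (log2 fold change 0.94, SE 0.0797, edgeR adjusted p = 1.57e-06). The gene lgmn, for legumain, which cuts after asparagine and processes several cathepsins, stood at 102, 87.9, 88.3 and 88.1 CPM in sib48 and 135, 137, 173 and 145 in mut48. It rose 1.61-fold without overlap of the groups (SE 0.0818 on the log2 scale, edgeR adjusted p = 9.28e-05).

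The carboxypeptidase gene ctsz rose 1.67-fold, from 17.8, 20.5, 20.9 and 21.8 CPM in sib48 to 29, 33.6, 39.6 and 33.6 in mut48 (edgeR adjusted p = 4.06e-04). Here too the lowest mutant library was above the highest sibling library. The other called proteases were ctsa, the protective protein of neuraminidase and beta-galactosidase (1.6-fold, edgeR adjusted p = 6.71e-04), the aspartic protease gene ctsd (1.51-fold), ctsk, known in mammals for the breakdown of collagen (1.56-fold), ctsf (1.22-fold) and ctsla. The gene ctsla, for cathepsin L, had the highest fold change of the 52 genes, 2.12-fold, with values of 461, 443, 399 and 405 CPM in sib48 and 669, 913, 1114 and 926 in mut48 (SE 0.315 on the log2 scale, edgeR adjusted p = 0.0453). Its groups did not overlap at 48 hpf, but its libraries spread widely at 24 hpf, and this spread enters the test.

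The genes ctsba, ctsc and ctsh, for cathepsins B, C and H, were not called, although their groups did not overlap at 48 hpf either. The level of ctsba was 84.5 ± 3.89 CPM (SD, n = 4) in sib48 and 145 ± 13.8 in mut48 (edgeR adjusted p = 0.0689). That of ctsc was 19.2 ± 1.04 and 33.8 ± 5.66 (edgeR adjusted p = 0.19), and that of ctsh 9.51 ± 1.17 and 16.9 ± 3.6 (edgeR adjusted p = 0.469). The test pooled the spread of all 16 libraries, and at 24 hpf the highest library exceeded the lowest within a group 1.98 to 8.86 times in these 3 genes. When only the 8 libraries of 48 hpf were fitted, edgeR gave adjusted p = 1.84e-04, 0.00169 and 0.00836 for ctsba, ctsc and ctsh. The remaining protease, the dipeptidyl peptidase gene dpp7, was not called (52 ± 23.2 CPM in sib48 and 56.6 ± 11.3 in mut48, edgeR adjusted p = 0.857).

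Of 14 glycosidase genes 6 rose at 48 hpf and 0 fell, and those that rose include enzymes of glycolipid and glycoprotein breakdown. The gene naga, for the enzyme that removes alpha-linked N-acetylgalactosamine, stood at 15.9, 17.8, 15.8 and 21.4 CPM in sib48 and 29.9, 36.9, 36 and 36.2 in mut48. All mutant libraries were above all sibling libraries, and the rise was 1.96-fold (log2 fold change 0.97, SE 0.123, edgeR adjusted p = 1.78e-04). The beta-mannosidase gene manba stood at 4.17, 3.97, 4.74 and 4.01 CPM in sib48 and 7.18, 7.48, 8.26 and 6.36 in mut48, again without overlap (1.73-fold, edgeR adjusted p = 0.00243).

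The subunits of hexosaminidase, which cleaves the ganglioside GM2, both rose. The level of hexb, the beta subunit, was 31.5 ± 3.03 CPM in sib48 and 63.8 ± 2.79 in mut48 (2.02-fold, edgeR adjusted p = 0.00293). That of hexa, the alpha subunit, was 10.8 ± 0.732 and 14.7 ± 1.67 (1.36-fold, edgeR adjusted p = 0.0341). In the RefSeq gene table hexa is the member that lies on the chromosome of pla2g15, and no member lies on that of lipf; gba and ARSB had no chromosome there. Without these 3 genes, of which hexa alone was called, 20 of 49 were higher at 48 hpf and 0 lower in the same fit. Whether a place on these chromosomes affects a gene was not tested. Also higher were galca, for the galactosylceramidase of myelin lipid breakdown (1.95-fold, edgeR adjusted p = 0.0238), and naglu, for an enzyme of heparan sulfate breakdown (1.32-fold, edgeR adjusted p = 0.0256).

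The other 8 glycosidase genes were not called. The smallest of their p-values belonged to the alpha-mannosidase gene man2b1 (log2 fold change 0.42, SE 0.129, edgeR adjusted p = 0.0574). The sialidase gene neu1 and the glucocerebrosidase gene gba followed with log2 fold changes of 0.32 and 0.32 (edgeR adjusted p = 0.139 and 0.163). The genes gusb, glb1, gla, idua and gaa, for beta-glucuronidase, beta-galactosidase, alpha-galactosidase, alpha-iduronidase and acid alpha-glucosidase, had log2 fold changes between -0.28 for gaa and 0.11 for gusb. Of these idua stood at 6.76, 3.79, 5.23 and 5.79 CPM in sib48 and 5.72, 5.01, 5.04 and 3.31 in mut48, so that the groups overlapped (log2 fold change -0.18, SE 0.197, edgeR adjusted p = 0.675).

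Of 6 sulfatase genes 3 rose. The arylsulfatase A gene arsa, whose product desulfates the myelin lipid sulfatide, stood at 15.5, 13.9, 17.2 and 17 CPM in sib48 and 21, 23.2, 25.1 and 23.6 in mut48. The groups did not overlap, and the rise was 1.46-fold (log2 fold change 0.55, SE 0.0944, edgeR adjusted p = 0.00243). The gene gnsb, for the glucosamine-6-sulfatase of heparan sulfate breakdown, stood at 16.4, 18, 18 and 19.2 CPM in sib48 and 26.1, 30.3, 34.5 and 30.6 in mut48, again without overlap (1.7-fold, edgeR adjusted p = 0.00421). The keratan sulfate enzyme gene galns rose 1.58-fold (edgeR adjusted p = 0.0147). Not called were sgsh, ids and ARSB, for further enzymes of sulfated polysaccharides, with log2 fold changes of 0.37, 0.16 and 0.34 (edgeR adjusted p = 0.105, 0.791 and 0.399).

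Among the 8 tested genes of lipid handling the call was confined to smpd1. All 8 log2 fold changes were positive, where 44.8% of all genes had a positive one. In 6 of the 8 all mutant libraries lay above all sibling libraries, which held for 5.7% of all genes tested. The acid sphingomyelinase gene smpd1 stood at 8.43, 9.63, 8.89 and 8.44 CPM in sib48 and 13.9, 13.3, 12.5 and 12.1 in mut48 (1.46-fold, SE 0.162 on the log2 scale, edgeR adjusted p = 0.0487). All 4 mutant libraries lay above the siblings, but the call was close to the threshold and was lost in 13 of the 16 fits that left out 1 library and with the replicate number as a block (edgeR adjusted p = 0.0567). The acid ceramidase gene asah1b stood at 9.64, 11.5, 11.5 and 10.3 CPM in sib48 and 15.6, 14.7, 15 and 13.8 in mut48, just on the other side of the threshold (edgeR adjusted p = 0.0501). Its paralog asah1a had a log2 fold change of 0.21 (edgeR adjusted p = 0.432).

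The cholesterol export genes npc1 and npc2 had log2 fold changes of 0.28 and 0.59 with SE 0.103 and 0.391 (edgeR adjusted p = 0.114 and 0.412). The level of npc2 was 58.1 ± 3.33 CPM in sib48 and 87.7 ± 7.0 in mut48, without overlap. The saposin precursor gene psap, the thioesterase gene ppt1 and the GM2 activator gene gm2a had log2 fold changes of 0.33, 0.28 and 0.28 and were not called (edgeR adjusted p = 0.474, 0.0715 and 0.407). Fitted on the 8 libraries of 48 hpf alone, 4 more genes of this class passed, asah1b, npc2, psap and ppt1 (edgeR adjusted p = 0.021, 0.00109, 0.0299 and 0.0499), and npc1, gm2a and asah1a did not.

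Of 9 membrane protein genes 2 rose at 48 hpf, lamp1a and scarb2a. The gene lamp1a had the smallest p of the 52 and stood at 47.6, 46.4, 48.3 and 50.7 CPM in sib48 and 89.6, 95.4, 97.1 and 86.6 in mut48. The groups lay far apart, and the rise was 1.91-fold (log2 fold change 0.93, SE 0.0639, edgeR adjusted p = 1.11e-07). The gene scarb2a, for the receptor that in mammals carries beta-glucocerebrosidase to lysosomes, stood at 201, 193, 209.8 and 193 CPM in sib48 and 253, 299, 279 and 271 in mut48, also without overlap (1.38-fold, edgeR adjusted p = 0.00135).

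The close relatives of lamp1a were not called at 48 hpf. The level of lamp1b was 39.1 ± 1.92 CPM in sib48 and 42.5 ± 3.06 in mut48 (log2 fold change 0.12, SE 0.0678, edgeR adjusted p = 0.312). That of lamp2 was 51.3 ± 1.93 and 53.6 ± 3.58 (log2 fold change 0.06, SE 0.264, edgeR adjusted p = 0.929). The tetraspanin gene cd63, the calcium channel genes mcoln1a and mcoln1b and the sialic acid exporter gene slc17a5 were not called either, with log2 fold changes of 0.14, 0.35, 0.39 and 0.12 (edgeR adjusted p = 0.588, 0.182, 0.356 and 0.627). The gene hgsnat, for a membrane enzyme that acetylates heparan sulfate, had the smallest p among the 3 genes with a negative value. It stood at 56.3, 50.4, 52.7 and 47.8 CPM in sib48 and 48.4, 50.6, 47 and 45.2 in mut48, and the groups overlapped (log2 fold change -0.12, SE 0.128, edgeR adjusted p = 0.669).

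Of the 3 sorting and granulin genes grnb rose. It encodes a granulin precursor, the homologue of a human neurodegeneration gene, and stood at 31.7, 29, 29.3 and 29.6 CPM in sib48 and 39, 41.1, 36.4 and 37 in mut48, without overlap (1.28-fold, edgeR adjusted p = 0.00572). Its paralog grna was sparse, at 1.79, 1.01, 1.6 and 1.14 CPM in sib48 and 1.58, 3.87, 1.99 and 2.49 in mut48, and its groups overlapped (log2 fold change 0.84, SE 0.386, edgeR adjusted p = 0.208). The sorting receptor gene sort1a was not called (log2 fold change 0.05, SE 0.119, edgeR adjusted p = 0.858).

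**Figure D2:**
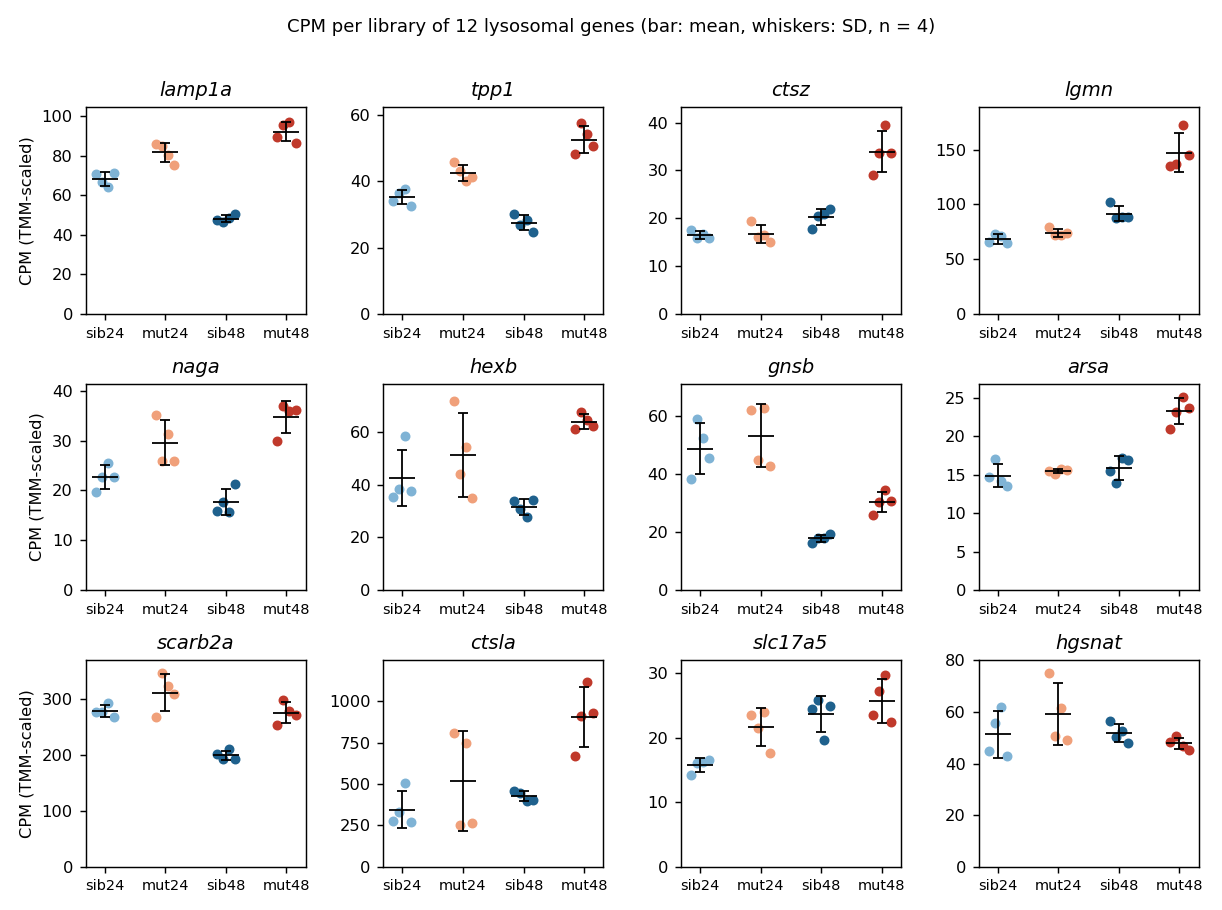
Levels in CPM (vertical axes from 0) of 12 lysosomal genes in each of the 16 libraries by group, with the mean and SD over 4 libraries. In the 10 panels from lamp1a to ctsla, all of called genes, every mut48 library lies above every sib48 library, while in slc17a5 and hgsnat the groups of 48 hpf overlap.

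Of the 21 calls at 48 hpf, 15 held in every alternative in which the gene was fitted, including each fit without 1 library: arsa, ctsa, ctsd, ctsk, ctsz, galns, gnsb, grnb, hexb, lamp1a, lgmn, manba, naga, scarb2a and tpp1. The other 6 lost the call in at least 1 of them, namely ctsf, ctsla, galca, hexa, naglu and smpd1. The gene ctsla lost it without any of sib24 replicates 1 and 2, the 4 sib48 libraries and mut48 replicates 2, 3 and 4, with a highest adjusted p over the alternatives of 0.113. The gene galca lost it without sib48 replicates 2 or 4 or mut48 replicate 2, with a highest adjusted p over the alternatives of 0.0792. For ctsf, hexa and naglu the call was lost without at least 5 of the single libraries of 48 hpf, with highest adjusted p-values of 0.0848, 0.107 and 0.0787. No direction changed, and the log2 fold change of ctsla stayed between 0.97 and 1.31.

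A wider list of genes linked to the lysosome, which includes both knocked-out genes, held 73 tested genes outside the 52. Of these 8 were higher at 48 hpf (11%) and 2 lower (2.74%), and their median log2 fold change was 0.20. Over all genes tested 2.84% were called higher and 4.59% lower. Whether the 73 genes differ from the 52 was not tested. The fucosidase gene fuca1.1 had the smallest p of those that rose, going from 50.2 ± 5.04 CPM in sib48 to 111 ± 2.7 in mut48 (2.2-fold, edgeR adjusted p = 5.02e-04). One of the lower genes was lipf itself. Of 15 genes that sort or activate the enzymes 1 was higher (6.67%) and 1 lower (6.67%), which does not set this list apart from all genes. The higher one was the mannose-6-phosphate receptor gene igf2r (1.42-fold, edgeR adjusted p = 0.0175). The lower one was the adaptor gene gga1 (log2 fold change -0.25, edgeR adjusted p = 0.0146). Both were named after their values were seen.

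Of 12 genes of the Tfeb family and the proteins that control it, 5 were higher at 48 hpf (41.7%) and 0 lower. Over all genes tested 2.84% were called higher and 4.59% lower. The row si:ch211-42i9.8, a RefSeq synonym of fnip2, whose mammalian product binds folliculin, rose 1.72-fold (edgeR adjusted p = 8.1e-04). The transcription factor gene tfe3a stood at 21.5, 20.0, 21.8 and 18.2 CPM in sib48 and 31.4, 32.3, 48 and 35.9 in mut48, without overlap (1.81-fold, edgeR adjusted p = 9.01e-04). Also higher were tfec, the folliculin gene flcn and fnip1 (edgeR adjusted p = 0.0282, 0.0131 and 0.0211). Among the genes not called was tfeb, at 11.4, 11.9, 8.98 and 8.66 CPM in sib48 and 12.7, 9.88, 10.7 and 9.64 in mut48 (log2 fold change 0.07, edgeR adjusted p = 0.853). All of these but the fnip2 row were named after their values were seen. The list of 12 genes was itself chosen with earlier results of these data known.

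Markers of macrophages, cells rich in lysosomes, overlapped between the genotypes at 48 hpf. Over all genes tested edgeR called 2.84% higher and 4.59% lower. Of 25 tested macrophage genes it called 0, DESeq2 called 1 higher, and 5 had an unadjusted p under 0.05, all positive. The summed level of the 26 found ran from 78.2 to 92.6 CPM in sib48 and from 75.3 to 120.4 in mut48, and none of the markers was at 0 throughout. For 7 neutrophil genes the sums were 72.1 to 88.5 CPM in sib48 and 76 to 116 in mut48, with 0 calls by edgeR and DESeq2 and 2 genes at an unadjusted p under 0.05. Of 8 hatching gland genes agr2 was lower (log2 fold change -1.0, edgeR adjusted p = 0.00546) and the other 7 were not called, and their sums ran from 478 to 741 CPM in sib48 and from 547 to 676 in mut48. The part of these cells in the lysosomal result was not tested.

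Markers of the yolk syncytial layer lay lower in mutants at 48 hpf as a mean over the list, but not in every marker. Of the 22 tested markers 16 had a negative log2 fold change and 6 a positive one, where 44.8% of all genes had a positive one. The values ran from -6.42 to 1.29, with a median of -0.54. The mean log2 CPM of 22 markers ran from 6.07 to 6.74 in sib48 and from 5.42 to 5.77 in mut48, without overlap. The summed level of the 24 found ran from 3603 to 5843 CPM in sib48 and from 2765 to 3659 in mut48. Of the 22 genes 1 was called lower (apoa4b.2, edgeR adjusted p = 0.0214) and 0 higher, that is 4.55% lower against 4.59% of all genes. No marker was at 0 in all libraries. Their part in the lysosomal result was not tested. With the mean of these markers as a covariate in the fit of all 16 libraries, 32 of the 52 lysosomal genes were higher in mut48 and 0 lower. How many of all genes were called with the covariate was not counted. Because the covariate did not overlap between the genotypes at 48 hpf, this fit cannot separate the level of the markers from the genotype at that age.

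At 24 hpf no lysosomal gene was called in either direction. The backgrounds were 0.391% of all genes called higher and 0.44% lower. Of the 52 genes 9 had an unadjusted p under 0.05, all of them higher in mutants, and DESeq2 called 3 of them higher, neu1, lamp1a and slc17a5. For neither count was the share over all genes counted. The median log2 fold change was 0.15 against -0.00333 over all genes tested, and 44 of 52 values were positive, where 49.1% of all genes were. In 5 genes (lamp1a, slc17a5, tpp1, naga and grnb) all mut24 libraries lay above all sib24 libraries, which held for 4.17% of all genes tested. Without mut24 replicate 4 edgeR called neu1, lamp1a and slc17a5 higher, and without sib24 replicate 3 it called neu1.

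The smallest p at 24 hpf again belonged to lamp1a, at 71, 66.6, 64.1 and 71.1 CPM in sib24 and 86, 85, 80.5 and 75.5 in mut24. The lowest mutant library was above the highest sibling library (log2 fold change 0.26, SE 0.0634, edgeR adjusted p = 0.0607). The sialic acid exporter gene slc17a5 stood at 14.2, 16.2, 16.2 and 16.6 CPM in sib24 and 23.6, 21.6, 24 and 17.6 in mut24, also without overlap (log2 fold change 0.46, SE 0.119, edgeR adjusted p = 0.0782). The sialidase gene neu1 stood at 27.9, 33.1, 40.2 and 35.3 CPM in sib24 and 56.8, 44.7, 48.9 and 37.2 in mut24, where 1 mutant library fell within the range of the siblings (log2 fold change 0.46, SE 0.125, edgeR adjusted p = 0.0926). The product of neu1 frees sialic acid from glycans and that of slc17a5 exports it from the lysosome.

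By class, the median log2 fold changes at 24 hpf were 0.11 for proteases, 0.12 for glycosidases, 0.24 for sulfatases, 0.12 for lipid handling, 0.18 for membrane proteins and 0.18 for the sorting and granulin genes. At 48 hpf they were 0.72, 0.36, 0.46, 0.31, 0.14 and 0.36 in that order. Every class thus had a positive median at both ages, and the membrane proteins were the class whose median was not higher at 48 hpf. Across the 52 genes the log2 fold changes at the 2 ages, which share no library, had a Pearson r of 0.42. They had the same sign in 41 genes (78.8%). Over all 24300 genes r was 0.08 and the sign was the same in 54.7%. Genes are not independent replicates, so this is a description.

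Several lysosomal genes varied more between libraries of 1 group at 24 hpf than between the genotypes. The libraries of 24 hpf differed widely in markers of the yolk syncytial layer, whose mean log2 CPM was 4.14, 5.56, 6.66 and 2.36 in siblings and 6.77, 1.95, 5.81 and 1.75 in mutants. The cathepsin H gene ctsh stood at 10.6, 32.4, 52.9 and 8.92 CPM in sib24 and 72.5, 8.18, 39.4 and 8.26 in mut24, a range of 5.93 and 8.86 times. The libraries with much ctsh were those with high yolk layer markers: replicates 2 and 3 of the siblings and 1 and 3 of the mutants. At 48 hpf the markers were more even within a group, and the range of ctsh was 1.32 and 1.63 times. The part of the yolk layer in the spread of ctsh, and of the genes named next, was not tested.

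The same libraries were high in npc2, ctsc, ctsla, ctsba and psap, all of them picked after their values were seen. The cholesterol carrier gene npc2 stood at 54.4, 81.4, 126 and 43.8 CPM in sib24 and 175, 39.3, 129 and 38 in mut24. Values of ctsla were 274, 332, 508 and 270.2 CPM in sib24 and 808, 251, 749.9 and 267 in mut24. Those of ctsc were 38.9, 66.8, 85.4 and 34.1 and 138, 37.5, 115 and 39.3, and in each of these genes mut24 replicate 1 was the highest of the 8 libraries. The saposin gene psap ranged 1.85 times in sib24 and 2.52 times in mut24, and ctsba 1.98 and 2.65 times. In lamp2 the high libraries were sib24 replicate 3 and mut24 replicate 1 alone (43.6, 47.7, 101 and 44.4 CPM in sib24 and 91.4, 37.3, 45.9 and 40.3 in mut24).

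Other lysosomal genes were even across these libraries. The highest library of lamp1a exceeded the lowest 1.11 times in sib24 and 1.14 times in mut24, that of tpp1 1.15 and 1.14 times and that of lamp1b 1.09 and 1.1 times. The median coefficient of variation of the 52 genes was 15.1% and 18.9% in siblings and mutants of 24 hpf, and 7.85% and 10.7% in those of 48 hpf. Over all genes tested the medians were 15.1%, 14.8%, 13.4% and 15.8% in that order.

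With the mean of the yolk layer markers as a covariate, edgeR called 10 lysosomal genes higher in mut24 and 0 lower. They were ctsba, ctsla, ctsc, naga, neu1, galca, npc2, psap, lamp1a and slc17a5. The share of all genes called in this fit was not counted, so these 10 calls have no background to be set against. The log2 fold change of ctsc was 0.62 with SE 0.107 (edgeR adjusted p = 0.00578), where the fit without the covariate gave 0.55 with SE 0.353 (edgeR adjusted p = 0.536). For ctsla the values were 0.60 with SE 0.134 (edgeR adjusted p = 0.0235), and 0.59 with SE 0.313 (edgeR adjusted p = 0.434). The covariate was itself measured in these libraries, and its own relation to genotype was not tested.

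**Figure D3:**
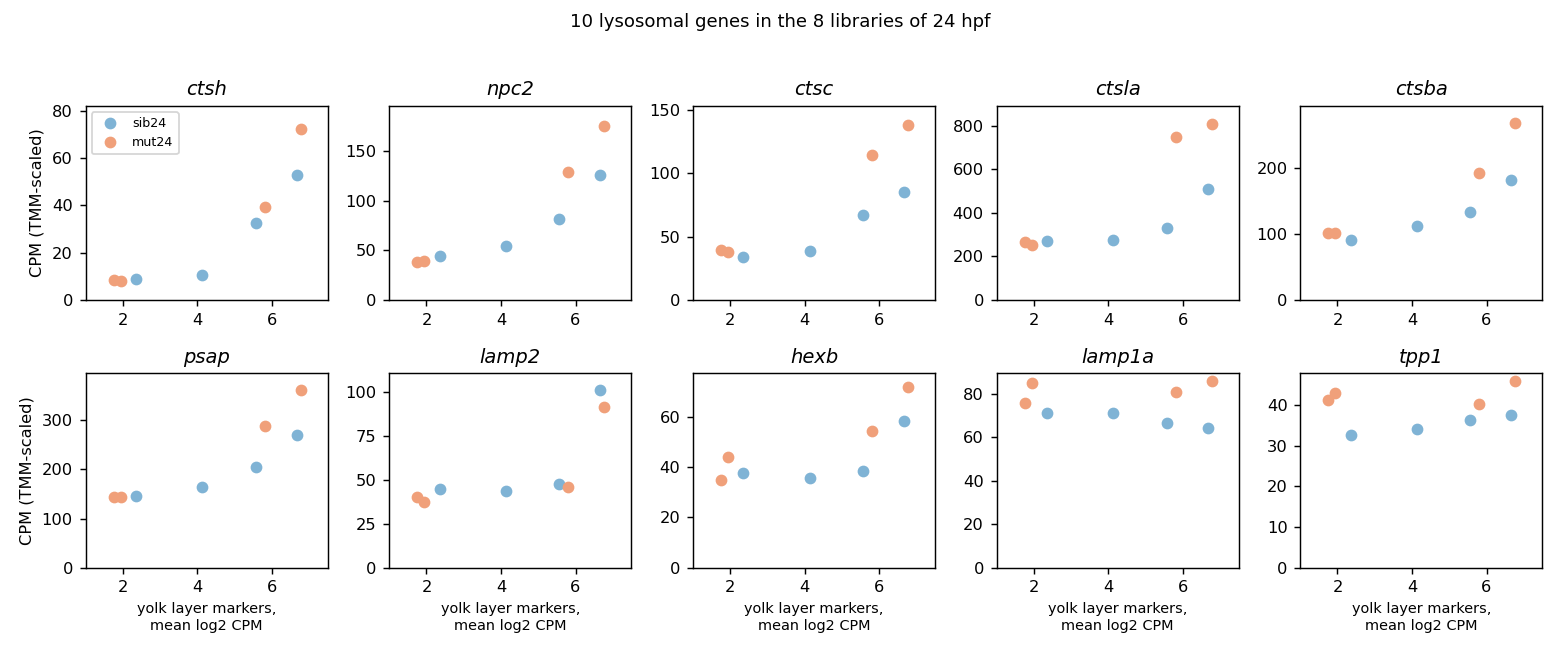
Level in CPM (vertical axis) of 10 lysosomal genes in the 8 libraries of 24 hpf against the mean log2 CPM of 22 yolk syncytial layer markers in the same library (horizontal axis). Genes such as ctsh and npc2 are high where the markers are high, while in lamp1a and tpp1 all 4 mutant libraries lie above the siblings at any marker level.

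With age, more of these genes fell than rose in siblings. More rose than fell in mutants, as over all genes, and the share that rose was near that of all genes. In sib48 against sib24, 10 of the 52 genes were higher (19.2%) and 19 lower (36.5%), where 34.1% of all genes were called higher and 29.2% lower. In mut48 against mut24, 17 were higher (32.7%) and 9 lower (17.3%), where the backgrounds were 34.1% and 30.4%. These comparisons share no library. Of the 52 genes 9 were called higher in both genotypes and 8 lower in both. Called lower with age in siblings and higher in mutants were 2 genes, tpp1 and lamp1a. Across the 52 genes the 2 sets of log2 fold changes had a Pearson r of 0.91, and over all genes 0.90. The sign was the same in 39 of the 52 genes (75%), and in 86.9% of all genes.

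The largest rises with age in siblings were those of grna, asah1a and mcoln1b. The granulin gene grna rose from 0.371, 0.311, 0.307 and 0.213 CPM in sib24 to 1.79, 1.01, 1.6 and 1.14 in sib48 (log2 fold change 2.19, SE 0.432, edgeR adjusted p = 2.52e-04). Of 25 macrophage markers 16 were higher (64%) and 1 lower (4%) with age in siblings, against 34.1% and 29.2% of all genes. Their sum went from 24.9 to 31.3 CPM in sib24 to 78.2 to 92.6 in sib48. Their part in the rise was not tested. The ceramidase gene asah1a rose from 4.0, 4.02, 4.78 and 3.99 CPM to 10.1, 11.1, 9.56 and 10.1 (log2 fold change 1.29, edgeR adjusted p = 6.3e-07). The channel gene mcoln1b rose from 1.17, 1.68, 2.1 and 2.05 CPM to 4.7, 4.04, 3.53 and 3.87 (log2 fold change 1.2, edgeR adjusted p = 2.65e-04). In mutants the log2 fold changes of grna, asah1a and mcoln1b were 2.82, 1.53 and 1.41, each called.

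The largest falls in siblings were those of ctsc, ctsh and gnsb. The gene ctsc fell from 38.9, 66.8, 85.4 and 34.1 CPM in sib24 to 19.3, 19, 20.6 and 18.1 in sib48 (log2 fold change -1.55, SE 0.364, edgeR adjusted p = 0.00122). The sulfatase gene gnsb stood at 38.2, 58.8, 52.4 and 45.6 CPM in sib24, above all of its values in sib48 (log2 fold change -1.44, SE 0.144, edgeR adjusted p = 9.11e-08). In sib48 ctsh stood at 8.21, 10.8, 10.04 and 8.93 CPM, where its lowest values of sib24 also lay. Its fall (log2 fold change -1.46, SE 0.606, edgeR adjusted p = 0.0437) was lost without sib24 replicate 2 or 3, any sib48 library, mut24 replicate 3 or mut48 replicate 1 or 2, and with the replicate block (edgeR adjusted p = 0.0759). Its highest adjusted p over the alternatives was 0.206. In mutants gnsb and ctsc also fell (log2 fold changes -0.81 and -1.28), and ctsh was not called (edgeR adjusted p = 0.183).

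The count of falls depended on single libraries. In siblings it was 12 without sib48 replicate 3, and in mutants 5 without mut24 replicate 3 and 5 without mut48 replicate 1. Of the 29 calls in siblings 21 held in every alternative, and those that did not were ctsba, ctsh, ctsz, hexb, idua, naga, npc1 and sgsh. Of the 26 calls in mutants 19 held, and those that did not were ctsa, ctsla, gm2a, grnb, hgsnat, lamp1a and scarb2a.

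**Figure D4:**
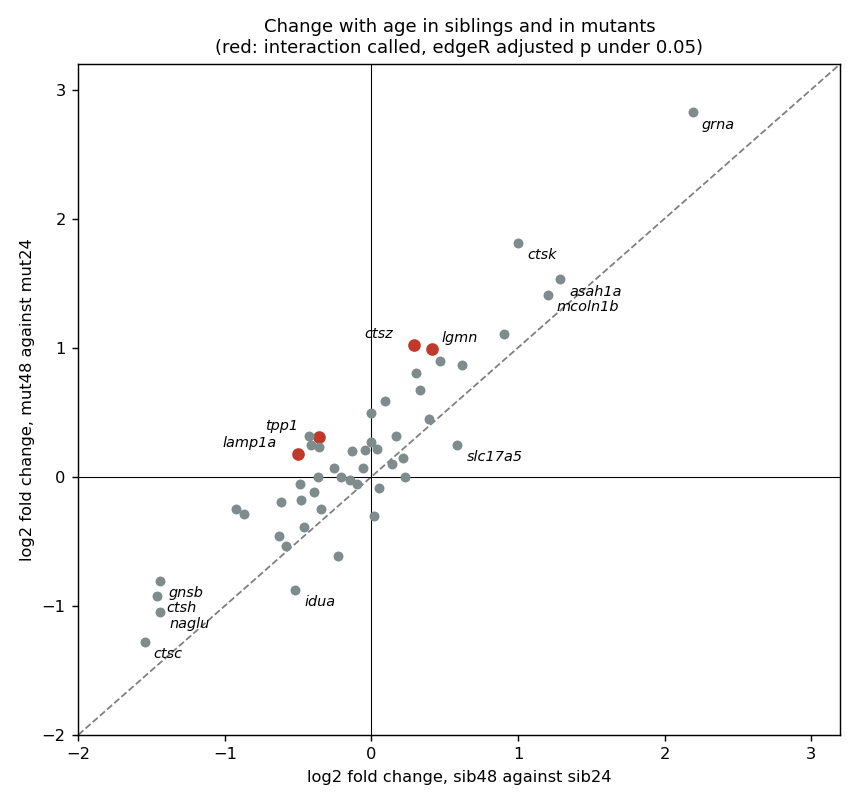
Log2 fold change of 48 against 24 hpf in siblings (horizontal axis) and in mutants (vertical axis) for the 52 tested genes, with the dashed line of equal change and, in red, the genes whose change differed between genotypes by the interaction test. The 4 red genes, lamp1a, tpp1, ctsz and lgmn, lie above the line.

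The genotype effect differed between ages in 4 of the 52 genes. In the interaction test 4 were called with a larger effect at 48 hpf and 0 with a smaller one, where 0.486% and 0.519% of all genes were called in these directions. No gene was called smaller by DESeq2 either, and 0 had a negative value at an unadjusted p under 0.05. The level of lamp1a was 68.2 ± 3.43 CPM in sib24 and 48.3 ± 1.84 in sib48, but 81.7 ± 4.79 in mut24 and 92.2 ± 4.91 in mut48 (interaction 0.67 on the log2 scale, SE 0.0898, edgeR adjusted p = 0.00138). The gene tpp1 stood at 34.1, 36.4, 37.6 and 32.7 CPM in sib24 and 45.8, 43, 40.2 and 41.2 in mut24, with means of 27.4 ± 2.24 in sib48 and 52.6 ± 4.13 in mut48 (interaction 0.66, SE 0.112, edgeR adjusted p = 0.011). Both thus fell with age in siblings and rose in mutants, and the rise of lamp1a was lost without mut24 replicate 3 or 4 or mut48 replicate 2 or 3, and when the mutants were fitted alone.

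The peptidase genes ctsz and lgmn rose with age in both genotypes, and more in mutants. The gene ctsz stood at 17.6, 15.9, 16.8 and 15.9 CPM in sib24 and 19.4, 16.1, 16.4 and 15.1 in mut24, with means of 20.3 ± 1.71 in sib48 and 33.9 ± 4.33 in mut48 (interaction 0.73, SE 0.146, edgeR adjusted p = 0.0255). The level of lgmn was 68.6 ± 4.42 CPM and 91.5 ± 6.89 in siblings and 74.2 ± 3.59 and 147 ± 17.5 in mutants (interaction 0.57, SE 0.116, edgeR adjusted p = 0.0258). The calls of lamp1a and tpp1 held in every alternative. Without mut24 replicate 2, mut24 replicate 3 or sib48 replicate 2 these were the 2 calls that were left; lgmn was also lost without sib24 replicate 2, sib48 replicate 3 or sib48 replicate 4, and ctsz without sib24 replicate 1. Just outside the threshold were ctsd, ctsk and ctsa (edgeR adjusted p = 0.0507, 0.054 and 0.054). For the other genes an effect called at 48 hpf and not at 24 hpf is not shown to differ between the ages.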

How the data were processed

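Gene counts for 16 libraries of zebrafish embryos, 4 in each group, were used as deposited by the authors: whole numbers of reads for 36109 genes, not normalized. Per the submitters' processing notes, FastQC 0.12.1, Trim Galore 0.6.10, STAR 2.7.10b, featureCounts 2.0.6 and the genome build GRCz11 were used; they give no strand setting. Groups came from the labels, and columns were matched by the names the labels give. No libraries were identical.

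Genes with low counts were removed by edgeR's filterByExpr, leaving 24300 and removing 11809. Counts were scaled by TMM. edgeR 4.0.16 (R 4.3.3) fitted 1 mean per group to all 16 libraries, and its quasi-likelihood F test gave each comparison, with Benjamini-Hochberg adjustment over all genes tested and a threshold of 0.05. The SE is the log2 fold change divided by the square root of F. The test was checked on simulated counts. CPM values use TMM-scaled library sizes. Total counts of 35851808 to 50462333 per library set the counting precision.

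The alternatives tried were scaling by RLE or by upper quartile, testing all genes, a stricter filter (1 CPM or more in 4 or more libraries), a replicate block, the yolk layer mean as a covariate, only the groups compared, DESeq2 1.42.0 and leaving out each library. Matching by exact symbol alone was added after seeing the data. Members and lists were chosen with earlier results of these data known. Values in every library of the groups compared were given by rule for the 2 smallest p-values of each class at 48 hpf, the 3 smallest at 24 hpf and in the interaction, the 2 smallest among negative values at 48 hpf, and the 3 largest and 3 smallest called changes with age in siblings; from the other lists, the 3 called genes with the smallest p in each genotype comparison were named. Other members described beyond their call were picked after their values were seen. Names came from the RefSeq gene table, whose build differs from that of the counts, so no coordinates are printed.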

Additional observations from a re-analysis of the deposited data

Results flagged for a closer look

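Of 208 groups of 4 libraries, 11 held a library set far from the other 3. That total is about the 1 in 20 that chance gives, but sib24 replicate 3 held more of them than any other library. Whether this uneven spread exceeds chance was not tested. In sib24 replicate 3, hexb stood at 58.3 CPM, asah1a at 4.78, smpd1 at 9.59 and lamp2 at 101, each above the other 3 libraries, and asah1b stood at 5.55, below them. In mut24, lamp2 stood at 91.4 CPM in replicate 1 and lamp1b at 46.5 in replicate 2, each the highest of the group. In sib48 replicate 1, lgmn stood at 102 CPM, above the others, and ctsba at 78.6, below them. In mut48, hexa stood at 12.2 CPM in replicate 4 and naga at 29.9 in replicate 1, each the lowest of the group.

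The genotype effect differed between 24 and 48 hpf in 4 genes by the interaction test, with differences of 0.73 for ctsz, 0.67 for lamp1a, 0.66 for tpp1 and 0.57 for lgmn on the log2 scale.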

How the results depend on the processing

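No called result changed direction in the alternatives run. The share of all genes called was counted in the main edgeR fit alone, so the counts of members in the alternatives have no background. At 48 hpf the number of members higher in mutants was 32 with the yolk layer covariate, which itself differed between the genotypes at that age. The number was 29 when only the groups of 48 hpf were fitted (9 gained, naglu lost), and 15 to 24 when single libraries were left out. At 24 hpf it was 10 with the covariate, 3 with DESeq2 and 0 to 3 when single libraries were left out. With age, the number lower in siblings was 12 to 20 and in mutants 5 to 9 when single libraries were left out. Interaction calls numbered 7 with RLE scaling, 7 with upper-quartile scaling, 7 with no filter, 7 with at least 1 CPM in at least 4 libraries, 12 with the covariate, 12 with DESeq2 and 2 to 6 when single libraries were left out. With the replicate number as a replicate block 2 interaction calls were left, smpd1 lost its call at 48 hpf, ctsh and hexb lost their falls with age in siblings (edgeR adjusted p = 0.0567, 0.0759 and 0.0597), and no other call of a member changed. Same-numbered libraries correlated between -0.107 and 0.203 in their deviations from group means, so the numbers were not taken to pair the libraries. The cause of these moves was not tested. Depth limits sparse genes such as grna.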
